A study of Rattus norvegicus with 3 samples.

Results

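Proteins that were measured in both a soluble and a crude mitochondrial fraction of Rat1 fibroblasts are described here, to ask whether Myc moved a protein alike wherever it was recovered. A protein entered when a human or mouse Swiss-Prot entry of the same entry name had an abundance ratio in both tables, with the entry of the same species preferred. This gave 95 proteins, out of 348 Swiss-Prot names with a ratio in the soluble table, 140 in the mitochondrial table and 1053 entries of any kind in the whole series. Rat1 fibroblasts, an established rat cell line, carried either Myc or the empty vector, and both were deprived of serum for 12 h. Vector protein carried the isotopically light and Myc protein the heavy form of the isotope-coded affinity tag (ICAT), which binds cysteine, and each ratio below is Myc over vector. The soluble mixture held 2.5 mg and the mitochondrial mixture 250 ug of protein per label. Labels were not swapped and each fraction was measured as 1 mixture, so nothing below was checked in a replicate and no p-value can be given. How Myc was introduced, whether each line was 1 clone, and whether the fractions came from the same cultures is not given in the sources used here.

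Lysed cells separate by centrifugation into a soluble part, mostly cytosol with the contents of broken organelles, and pellets that hold membranes. A crude mitochondrial pellet also carries endoplasmic reticulum with bound ribosomes, lysosomes, plasma membrane and trapped cytoskeleton. A protein that sits in both places, such as a ribosomal subunit or a membrane-bound GTPase, is thus sampled as different pools. Myc is a transcription factor known to drive ribosome synthesis, glycolysis and the expression of chaperones. A ratio does not show how much of a protein each fraction holds.

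In the tables, fibroblast markers were found in both fractions, with 5 of 10 in the soluble and 6 of 10 in the mitochondrial table, and epithelial and serum markers in neither. Of 10 markers of mitochondria 3 were in the mitochondrial table (Hsp60, malate dehydrogenase and the outer membrane channel VDAC1) and 4 in the soluble one. Of 5 cytosolic enzymes, 5 were in the soluble and 2 in the mitochondrial table. The markers of mitochondria did not set the mitochondrial table apart from the soluble one by their number. The mitochondrial table is the smaller, however, with 140 against 348 Swiss-Prot names with a ratio, so these counts are not shares. The median ratio over all entries was 1.34 in the soluble and 1.15 in the mitochondrial fraction (542 and 201 entries). Log2 ratios were centred on these medians, and a centred difference below is mitochondrial minus soluble on the log2 scale. The ± of a ratio is the SD that the authors deposited, and the ± of a difference combines both as relative errors. A protein was called different when its centred ratios lay 1.5-fold or more apart and the difference exceeded 2 combined errors.

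Most proteins did not differ by this rule between the fractions. Of the 95, 7 were higher in the mitochondrial fraction relative to its median (7.37%) and 4 were lower (4.21%), together 11.6%. The higher proteins were calponin H2, protein disulfide isomerase A3, phosphoglycerate dehydrogenase, the ribosomal proteins S3 and L12, retinoblastoma-binding protein 7 and prosaposin. The lower ones were aldolase A, Cdc42 by its brain-form entry, the mitochondrial protein p32 and cofilin 1. The direction of this balance depends on the centring, since with the ratios as deposited 4 were higher and 12 lower.

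The median centred difference was -0.13, with 41 proteins above and 54 below 0, and the middle proteins lay between -0.57 and 0.46 (quartiles). The median absolute difference was 0.52, which is 1.44-fold, the median combined error was 0.57, and 51 of the 95 differences were within 1 combined error. Another 27 were between 1 and 2 errors, and 17 were beyond 2. Without the error rule 42 proteins were at least 1.5-fold apart, 19 higher and 23 lower. Relative to the median of its own fraction, 16 of the 95 proteins were higher and 9 lower in the soluble table (16.8% and 9.47%, against 12.9% and 17% of all its entries). For the mitochondrial fraction 7 were higher and 6 lower (7.37% and 6.32%, against 6.97% and 11.4%).

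**Figure D1:**
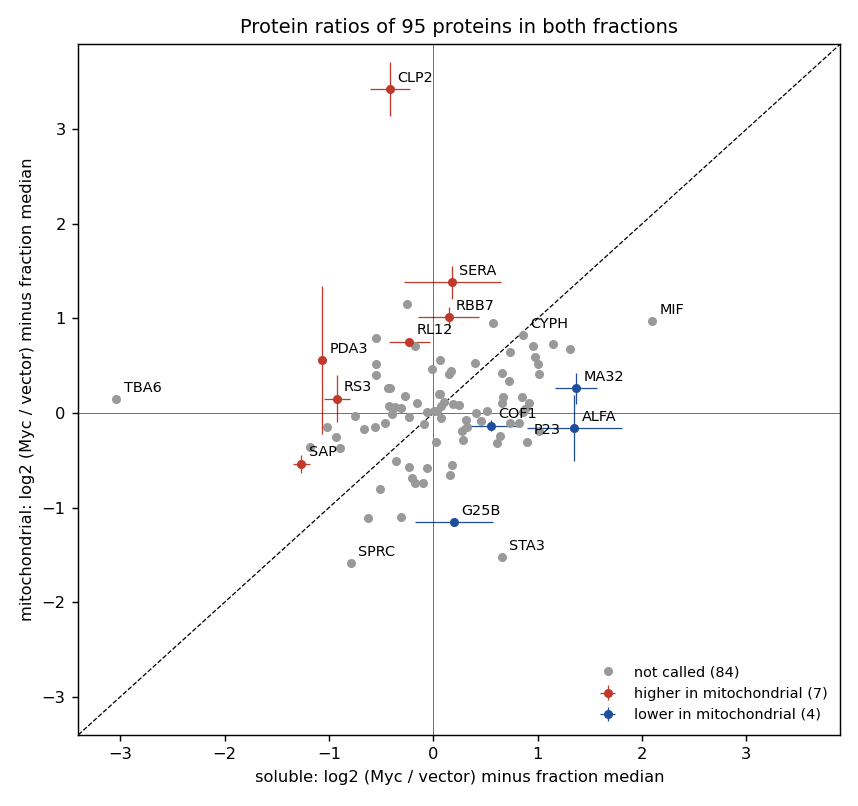
Centred log2 ratio of Myc over vector in the soluble (horizontal) and the mitochondrial fraction (vertical) for the 95 proteins, 1 point each, with deposited SDs as bars on the 11 called proteins. The dashed line marks equal centred ratios; the 7 proteins called higher in the mitochondrial fraction lie above it, calponin H2 (CLP2) farthest at a difference of 3.84, and the 4 called lower lie below it.

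A gauge for this spread comes from within the soluble mixture. There, 25 proteins had both a human and a mouse entry, each with its own peptides, and the entries of one protein differed by a median of 0.53 on the log2 scale, with 3 of the 25 (12%) past the same rule. These 3 were Hsc70, a chaperone, the neural cell adhesion molecule, and glyceraldehyde 3-phosphate dehydrogenase by its testis-type entries. Entries of the same protein in the soluble mixture were thus about as far apart as the protein ratios of the 2 fractions, 0.53 against 0.52. Of the 95 pairs, 46 matched the species and 49 set a human soluble entry against a mouse mitochondrial one. The ratio rested on 1 peptide in 44 proteins of the soluble and 53 of the mitochondrial table, while 31 proteins had at least 2 peptides in both, of which 3 were called.

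Ribosomal proteins lay mostly on the mitochondrial side. Of 13 members, 2 were called higher, 0 lower, and 10 lay above 0, beside 7 called higher (7.37%), 4 called lower and 41 above 0 among all 95. They had a median difference of 0.38 against -0.13 over all 95 proteins. Their median ratio was 1.11 in the soluble fraction, below its fraction's median, and 1.28 in the mitochondrial fraction, above its own. S3, a small-subunit protein at the entry of the mRNA channel that also acts in DNA repair, stood at 0.708 ± 0.060 in the soluble (RS3_HUMAN) and 1.28 ± 0.220 in the mitochondrial fraction (RS3_MOUSE), each on 1 peptide, a difference of 1.08 ± 0.28. L12, part of the stalk base where elongation factors bind, stood at 1.15 ± 0.153 and 1.95 ± 0.017 on 2 peptides each, a difference of 0.98 ± 0.19. Its mitochondrial lines carried SDs of 0.051 to 2.24, all above the deposited 0.017. P0, which anchors the stalk, pointed the same way at 0.918 ± 0.449 and 1.53 ± 0.012 (0.96 ± 0.71), and so did L3, near the peptidyl transferase centre, at 0.664 ± 0.248 and 1.04 ± 0.229 (0.87 ± 0.63), but neither passed the rule.

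The other ribosomal members differed less or were poorly measured. L32, S11, S2, S3a, S4 and L7a lay between 0.02 and 0.72, and their mitochondrial ratios between 1.13 and 1.33. The 3 members below 0 were L10 (-0.39 ± 0.91), L30 (-0.50 ± 0.35) and ribosomal protein SA (-0.81 ± 5.27). SA, also known as a laminin receptor, stood at 2.54 ± 9.26 and 1.24 ± 0.324. By its shared peptide it lay on the other side, at 1.63 ± 3.27, with soluble lines of 0.109 and 2.42. These errors leave its side undetermined. L30, of the large subunit, stood at 2.13 ± 0.051 and 1.30 ± 0.316. The peptides that both tables held gave the same picture for the group, with 10 of the 13 above 0 and a median of 0.44, although the 3 below 0 were then L30, P0 and L7a.

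Chaperones of the cytosol lay on the other side. None of the 12 was called in either direction, against 11 of all 95. Of these chaperones 10 lay below 0, against 54 of all 95, with a median difference of -0.40 against -0.13. Their median ratio was 1.95 in the soluble and 1.18 in the mitochondrial fraction, that is above the first fraction's median and close to the second's. The chaperonin TCP-1 is a ring of different subunits that folds actin and tubulin, and 7 of its subunits were measured. Gamma stood at 2.72 ± 0.772 and 1.01 ± 0.375 (-1.21 ± 0.67) and theta at 2.46 ± 0.345 and 1.19 ± 0.904 (-0.83 ± 1.11). Delta (-0.47 ± 0.53), epsilon (-0.41 ± 0.27) and eta (-0.23 ± 1.14) followed, while beta (-0.01 ± 0.45) and alpha (0.15 ± 0.44) lay near 0. In the mitochondrial table the 7 subunits spanned 1.01 to 1.55, against 1.38 to 2.72 in the soluble table. The human soluble entry of eta, on 5 peptides, lay below that range at 1.17 ± 0.430 and turned its difference to 0.63.

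Among the Hsp90 proteins, which mature kinases and receptors, the alpha form stood at 2.64 ± 0.587 and 1.73 ± 0.1, higher than the fraction median by the rule in both fractions, with a difference of -0.38 ± 0.33. The beta form stood at 1.51 ± 0.145 and 1.57 ± 0.213 (0.28 ± 0.24), and no peptide of it was in both tables. Their partner p23 stood at 2.50 ± 0.156 in the soluble fraction on 3 peptides and 0.935 ± 0.402 in the mitochondrial fraction on 1 (-1.20 ± 0.63), just short of 2 errors. Cyclophilin A, a prolyl isomerase, was the chaperone with the smallest combined error. By its mouse entries it had nearly equal centred ratios, at 2.43 ± 0.083 and 2.04 ± 0.211 (-0.03 ± 0.16), higher than the fraction median by the rule in both. This soluble ratio rested on 1 peptide, which gave 2.42 to 2.58 in the soluble but 1.21 in the mitochondrial table (-0.83 ± 0.31, past the rule). The other shared peptide gave 2.01 and 2.10 in the mitochondrial table, near the protein ratio there. The human soluble entry of cyclophilin A stood at 4.26 ± 1.71. For Hsc70 the choice of entry decided the result. The mouse entries gave 1.17 ± 0.263 and 0.717 ± 0.157 (-0.49 ± 0.45, not called), while the human soluble entry, at 2.86 ± 0.810, would have made it -1.77 and a call.

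**Figure D2:**
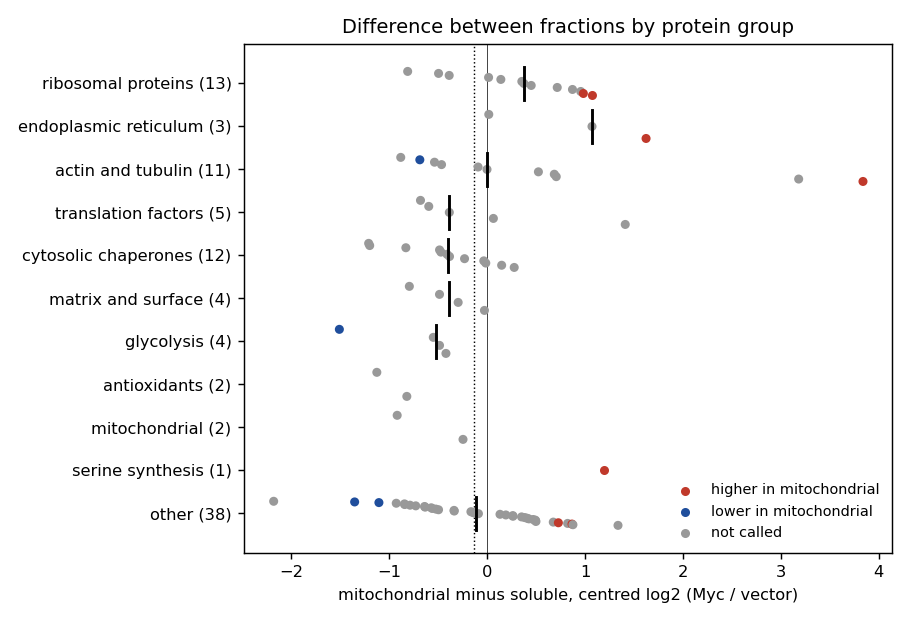
Mitochondrial minus soluble difference of centred log2 ratios for the 95 proteins by group (number of members in brackets), 1 point per protein, with a bar at the median of groups of at least 3 and a dotted line at the median of all 95, -0.13. Of the 13 ribosomal proteins 10 lie above 0, and of the 12 cytosolic chaperones 10 lie below it. Among all 95, 41 lie above and 54 below 0.

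All 4 enzymes of glycolysis were below 0, at a median of -0.52, and 1 was called, beside 54 below 0 and 11 called of all 95. Their soluble ratios were high, 2.12 to 3.43, and their mitochondrial ratios, 1.03 to 1.91, were not past the rule relative to the fraction median. Aldolase A, which splits fructose bisphosphate, stood at 3.43 ± 1.07 in the soluble and 1.03 ± 0.249 in the mitochondrial fraction, a difference of -1.51 ± 0.57. Testis-type glyceraldehyde 3-phosphate dehydrogenase stood at 2.12 ± 0.196 and 1.24 ± 0.171 (-0.55 ± 0.24), beyond 2 errors but under 1.5-fold. With its human soluble entry, at 4.33 ± 1.42, the difference was -1.58 and passed the rule. The name is that of the entry (G3PT), and close relatives can share peptides. The G3P entry of this enzyme was also in the soluble table, and which form was measured was not tested. Triosephosphate isomerase (2.70 ± 2.56 and 1.66 ± 0.643) and alpha enolase (2.98 ± 1.32 and 1.91 ± 0.764) were within 1 error. Beta enolase, whose entry was not in the list, stood at 3.34 ± 1.53 and 1.85 ± 0.683 (-0.63 ± 0.85). By the shared peptides, in contrast, 3 of the 4 enzymes lay above 0.

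For aldolase A the peptide that both tables held gave 9 soluble lines between 0.104 and 1.77, with a median of 1.18, and 1 value of 1.03 in the mitochondrial table. On that peptide the difference was 0.03 instead of -1.51. Of the 4 peptides with a ratio in the soluble table alone, the most measured ran from 1.42 to 6.00 over 16 lines of the human entry, and another from 1.76 to 4.10 over 5 lines of the mouse entry. The ratio used, 3.43, was that of the mouse entry on 2 peptides, and the human entry had its own, 2.94 ± 1.16. The mouse ratio lay nearer the 5-line peptide, which the mitochondrial table did not quantify, than the shared one. For triosephosphate isomerase the only shared peptide gave 0.427 and 0.436 in the soluble and 1.05 to 2.08 in the mitochondrial table, a difference of 1.59 and opposite in sign to that of the protein ratios.

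Phosphoglycerate dehydrogenase, which draws 3-phosphoglycerate out of glycolysis to make serine, went the other way. It stood at 1.52 ± 0.493 in the soluble fraction on 3 peptides and 3.00 ± 0.365 in the mitochondrial fraction on 2, a difference of 1.20 ± 0.50. Of its shared peptides, 1 gave 1.48 to 2.59 against 2.96, apart by the rule (0.88 ± 0.35). The other gave 1.54 to 6.93 against 3.96, a difference of 0.13. The soluble median of that peptide, 4.24, was well above the deposited soluble protein ratio.

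Factors of translation showed no call. Elongation factor 2, which moves the ribosome along mRNA and had the most peptides of any member (10 and 8), stood at 2.71 ± 0.689 and 1.54 ± 0.238 (-0.60 ± 0.43). Of its 5 shared peptides 4 were lower in the mitochondrial table, with differences of -0.27 to -0.98, and 1 was higher, at 0.31. Elongation factor 1-alpha, which delivers aminoacyl-tRNA, stood at 1.67 ± 0.399 and 1.09 ± 0.306 (-0.39 ± 0.53), and its gamma partner at 1.29 ± 0.248 and 1.16 ± 0.097 (0.06 ± 0.30). Initiation factor 5A, which carries hypusine and eases stalled elongation, stood at 2.43 ± 0.262 and 1.30 ± 1.33, and subunit 4 of initiation factor 3 at 1.13 ± 0.194 and 2.57 ± 4.14. The large errors of both leave their differences undetermined. Arginyl-tRNA synthetase, part of the multisynthetase complex, stood at 1.64 ± 0.248 and 0.948 ± 0.014, a difference of -0.57 ± 0.22 that was beyond 2 errors and just under 1.5-fold.

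Folding proteins of the endoplasmic reticulum stood above 0 in 3 of 3 members, at a median of 1.07, beside 41 of all 95 and a median of -0.13. Protein disulfide isomerase A3, which forms disulfide bonds in glycoproteins, was lower than the fraction median in the soluble table, at 0.642 ± 0.008, and stood at 1.70 ± 0.924 in the mitochondrial table (1.62 ± 0.79, called). Each value rested on 1 peptide and the peptides differed. Endoplasmin (GRP94), the Hsp90 of this organelle, stood at 0.916 ± 0.256 and 1.65 ± 0.491 (1.07 ± 0.59), and calreticulin, a calcium-binding lectin chaperone, at 1.44 ± 0.134 and 1.254 ± 0.193 (0.02 ± 0.26). By shared peptides endoplasmin and calreticulin lay below 0 (-0.40 and -0.35), opposite to their protein ratios.

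Lysosomal proteins and their receptors, grouped after their values were seen, had 2 of 5 members lower than the fraction median by the rule in the soluble table (prosaposin and the cation-independent mannose 6-phosphate receptor), where 9.47% of the 95 proteins and 17% of all entries were lower, and 0 past it in the mitochondrial table. Prosaposin, the precursor of the activators of sphingolipid breakdown, stood at 0.560 ± 0.032 and 0.796 ± 0.052 (0.73 ± 0.13), the call with the smallest combined error. That error rests on the deposited SDs, and the mitochondrial one was smaller than the SD of every prosaposin line in that table. The human soluble entry of prosaposin, at 0.669 ± 0.091, did not give the call. Nor did its shared peptide, with soluble lines from 0.099 to 0.937 and a difference of 0.31 ± 1.13. Cathepsin B, a lysosomal protease, stood at 0.976 ± 0.256 and 1.07 ± 0.036 (0.35 ± 0.38). The lysosomal protective protein, which shields galactosidase and sialidase, stood at 1.14 ± 0.018 and 0.774 ± 0.072 (-0.34 ± 0.14). Its single mitochondrial peptide was identified with a probability of 0.608. The mannose 6-phosphate receptors, which sort enzymes to lysosomes, stood at 0.851 ± 0.107 and 1.03 ± 0.008 for the cation-independent form (0.49 ± 0.18) and at 1.42 ± 0.217 and 1.11 ± 0.532 for the cation-dependent form (-0.13 ± 0.73). Cathepsin D, at 0.402 ± 0.047 in the soluble table, carried a code in place of a ratio in the mitochondrial table, so it is not among the 95. Kinesin heavy chain and the microtubule-associated protein of entry MAPB carried such a code in the soluble table.

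Cdc42, a small GTPase that sets cell polarity, has entries for its brain and its placental form, products of the same gene. The brain-form entry stood at 1.54 ± 0.404 and 0.518 ± 0.005 (-1.35 ± 0.38, called), on 1 peptide in each fraction that was not the same peptide. Its soluble lines were 1.17 and 1.66. The placental-form entry stood at 1.29 ± 0.059 and 0.771 ± 0.096 (-0.52 ± 0.19), on 1 peptide that both tables held. Both entries thus had the lower ratio in the mitochondrial fraction, and the shared peptide gave -0.54. Rac1, a GTPase that drives membrane ruffles, stood at 1.19 ± 0.183 and 0.692 ± 0.260 (-0.56 ± 0.59), with -0.52 by shared peptides. Close relatives of these proteins can share peptides, which the tables assign to 1 entry.

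Other proteins of GTP signalling were less clear. A Rab GDP dissociation inhibitor (GDIC_MOUSE), which extracts Rab proteins from membranes, stood at 2.05 ± 0.505 and 0.925 ± 0.409 (-0.93 ± 0.73). The beta-1 subunit of heterotrimeric G proteins stood at 0.706 ± 0.030 and 0.968 ± 0.283 (0.68 ± 0.43). Its shared peptide gave 0.706 in the soluble and 0.661 to 0.786 in the mitochondrial table, a difference of only 0.16.

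The mitochondrial list had 2 members, Hsp60 and malate dehydrogenase, both below 0 and neither called. Dihydrolipoamide dehydrogenase and p32, which also reside in mitochondria, were set beside them after their values were seen. Hsp60, the chaperonin of the matrix, stood at 2.60 ± 0.179 by its mouse entry in the soluble and 1.88 ± 0.780 in the mitochondrial fraction (-0.25 ± 0.61), with the human soluble entry at 2.57 ± 0.308. All 4 of its shared peptides had the lower centred ratio in the mitochondrial table, with differences of -0.37 to -0.67. Mitochondrial malate dehydrogenase, of the citric acid cycle, stood at 2.37 ± 0.474 and 1.07 ± 0.795 (-0.92 ± 1.11). Its 3 shared peptides lay at -0.63 ± 0.60, -0.89 ± 1.45 and -3.50 ± 1.86, each on 1 mitochondrial line. The line behind the last, 0.226 ± 0.269, had an SD above its ratio and a probability of 0.731. Dihydrolipoamide dehydrogenase, a subunit of the pyruvate and other dehydrogenase complexes, stood at 1.496 ± 0.237 and 1.54 ± 0.231 (0.26 ± 0.31).

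The p32 protein, which binds C1q in the test tube and resides mainly in the mitochondrial matrix, was called lower in the mitochondrial fraction. It stood at 3.47 ± 0.481 and 1.38 ± 0.157, a difference of -1.10 ± 0.26. Both values rested on the same peptide. Its soluble lines numbered 16 and ran from 1.13 to 6.32, and the mitochondrial lines were 1.26 and 1.45, so the ranges overlapped at the low end of the soluble lines. Their medians were 3.15 and 1.35.

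Proteins of the actin skeleton and tubulins had no common side, with 1 of 11 higher, 1 lower and a median of 0.00 (5 above and 6 below 0). Cofilin 1, which severs actin filaments, stood at 1.97 ± 0.381 in the soluble fraction on 4 peptides and at 1.05 ± 0.044 in the mitochondrial fraction on 1 (-0.69 ± 0.29). Its shared peptide gave 1.90 and 2.18 in the soluble table and 0.485 to 1.13 in the mitochondrial table, with no overlap. Its other soluble peptides spanned 0.986 to 3.06. Alpha-actinin 4, a filament cross-linker, stood at 1.84 ± 0.123 and 1.09 ± 0.302 (-0.54 ± 0.41, not called). Both of its shared peptides were lower without overlap, and 1 passed the rule (-0.87 ± 0.42).

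Beta actin stood at 1.00 ± 0.292 and 1.39 ± 0.176 (0.69 ± 0.46), smooth muscle alpha actin at 1.63 ± 0.652 and 1.01 ± 0.168 (-0.47 ± 0.62), so the isoforms pointed in opposite directions within their errors. A beta actin peptide with 9 soluble and 32 mitochondrial lines spanned 0.747 to 3.31 and 0.336 to 3.45, and by shared peptides beta actin lay at -0.18, opposite to its protein ratios. Profilin 1, which binds actin monomers, stood at 1.53 ± 0.332 and 1.23 ± 0.462, and adenylyl cyclase-associated protein 1 at 1.41 ± 0.229 and 1.21 ± 0.057, both close to no difference (-0.09 and 0.00). A tropomyosin chain stood at 0.722 ± 0.134 and 0.891 ± 0.136 (0.52 ± 0.35). The non-muscle myosin light chain stood at 2.09 ± 1.57 and 0.974 ± 0.005. Tubulin alpha-6 had the lowest soluble ratio of the 95, 0.164 ± 0.210, with an SD above the ratio itself, against 1.28 ± 0.914 (3.18 ± 2.12).

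Calponin H2, an actin-binding protein, had the largest difference of the 95. It stood at 1.01 ± 0.137 in the soluble fraction on 4 peptides and 12.4 ± 2.43 in the mitochondrial fraction on 2 (3.84 ± 0.34). The peptide in both tables gave 0.922 and 1.15 in the soluble table and 2.35 in the mitochondrial table, a difference of 1.42 ± 1.78. The other mitochondrial peptide, identified with a probability of 0.570, gave 12.6 ± 4.55 and had no ratio in the soluble table.

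Matrix and surface proteins of the list lay below 0 in 4 of 4 members (median -0.39, 0 called), beside 54 of all 95 (median -0.13, 11 called). SPARC, a secreted collagen-binding protein, stood at 0.776 ± 0.063 and 0.384 ± 0.149 (-0.79 ± 0.57) and galectin-1, a lectin, at 0.870 ± 0.036 and 0.533 ± 0.132 (-0.49 ± 0.36). Both were lower than the fraction median by the rule in the soluble and in the mitochondrial table. The soluble ratio of galectin-1 came from 1 peptide with a probability of 0.713. Its shared peptide, with 29 soluble lines, gave a difference of -0.16 ± 0.46. Integrin beta-1, the common chain of matrix receptors, stood at 0.944 ± 0.210 and 0.660 ± 0.046 (-0.30 ± 0.34), and its partner integrin alpha-V at 1.27 ± 0.049 and 1.07 ± 0.403 (-0.03 ± 0.55). Frizzled-2, a Wnt receptor, stood at 1.05 ± 0.289 and 0.814 ± 0.256, and CD166, an adhesion molecule, at 2.23 ± 0.878 and 1.80 ± 1.71. Plakoglobin, a junction protein, stood at 1.08 ± 0.137 and 0.538 ± 0.303 (-0.79 ± 0.83).

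The neural cell adhesion molecule showed how far entries and peptides can part. By protein ratios it stood at 0.593 ± 0.113 and 0.9 ± 1.76 (0.82 ± 2.84). Both shared peptides had the lower ratio in the mitochondrial table without overlap of the lines, at 1.33 against 0.263 and 0.789 for 1, and 0.513 to 0.655 against 0.218 to 0.428 for the other. Their differences were -1.32 and -1.02, neither past 2 errors.

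Among the remaining proteins, macrophage migration inhibitory factor (MIF), a cytokine with tautomerase activity, had the highest soluble ratio of the 95. It stood at 5.74 ± 0.792 and 2.26 ± 2.26 (-1.13 ± 1.46), and its shared peptide ran from 3.15 to 11.3 in the soluble table against 1.06 and 3.53. Peroxiredoxin 1, which reduces peroxides, stood at 1.51 ± 0.620 and 0.732 ± 0.079 (-0.82 ± 0.61), and was lower than the fraction median by the rule in the mitochondrial table. The transcription factor STAT3 had the lowest difference of the 95 (-2.18 ± 1.98), from 2.12 ± 0.550 to 0.401 ± 0.541, but its 1 mitochondrial line had an SD larger than its ratio. Retinoblastoma-binding protein 7, which binds histones in deacetylase and remodelling complexes, stood at 1.49 ± 0.302 and 2.33 ± 0.178 (0.87 ± 0.31, called). Its shared peptide gave overlapping lines, 1.61 to 2.44 and 2.11 to 2.37.

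CAS, which returns importin alpha to the cytosol, lay above both medians, at 1.99 ± 1.27 and 2.23 ± 0.718 (0.38 ± 1.03), and RanBP1, which helps to release RanGTP, stood at 2.43 ± 0.262 and 1.17 ± 0.832 (-0.84 ± 1.04). Both differences were within 1 combined error. The p97 ATPase VCP, which unfolds ubiquitinated proteins, stood at 0.921 ± 0.314 and 2.00 ± 2.67. That difference of 1.34 ± 1.99 shrank to 0.00 over its 3 shared peptides, each of which had its own level in both tables, about 0.512 and 0.606 for the lowest and 3.62 and 2.61 for the highest. Proteasome subunit alpha 3 stood at 1.34 ± 0.068 and 1.59 ± 0.175 (0.47 ± 0.18) and regulatory subunit 4 at 0.912 ± 0.087 and 1.04 ± 0.463. The RNA-binding proteins DEAD-box protein 3 (0.43) and CNBP (-0.84), the ribosome-bound scaffold RACK1 (0.13) and the phosphoprotein adaptor 14-3-3 zeta (-0.16) were not called. Nor were 9 further members. Of these, casein kinase 2 beta (0.88), tubulin alpha-4 (0.71), the Hsp70 partner DnaJ homologue A1 (0.50), tripeptidyl peptidase 2 (0.49), the actin bundler fascin (0.26) and the beta-prime subunit of the vesicle coat COPI (0.19) lay above 0. The beta subunit of the F-actin capping protein (-0.34), cellular retinoic acid-binding protein I (-0.50) and Hsp105, a large Hsp70 relative (-0.73), lay below it.

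Comparing identical peptides removes any difference in entry and in peptide make-up. There were 776 soluble and 296 mitochondrial peptides with a ratio. Among those found in both, 120 stood under the same entry name in both tables, for 86 of the 95 proteins. The other 46 did not, and they include sequences that only the soluble table lists under a member, as for ribosomal protein SA. The median absolute difference over all peptides found in both tables was 0.53, the same size as that of the protein ratios. With the spread of repeat lines counted in the error, 4 of all these shared peptides were higher in the mitochondrial table (2.41%) and 3 lower (1.81%), together 4.22%. Of the 120 peptides of the 95 proteins, 2 were higher, 1 of L12 (0.94 ± 0.32) and 1 of phosphoglycerate dehydrogenase, and 2 were lower, 1 of alpha-actinin 4 and 1 of cyclophilin A (-0.83 ± 0.31). The other peptide of cyclophilin A showed no difference (0.01), with soluble lines from 0.201 to 19.0.

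**Figure D3:**
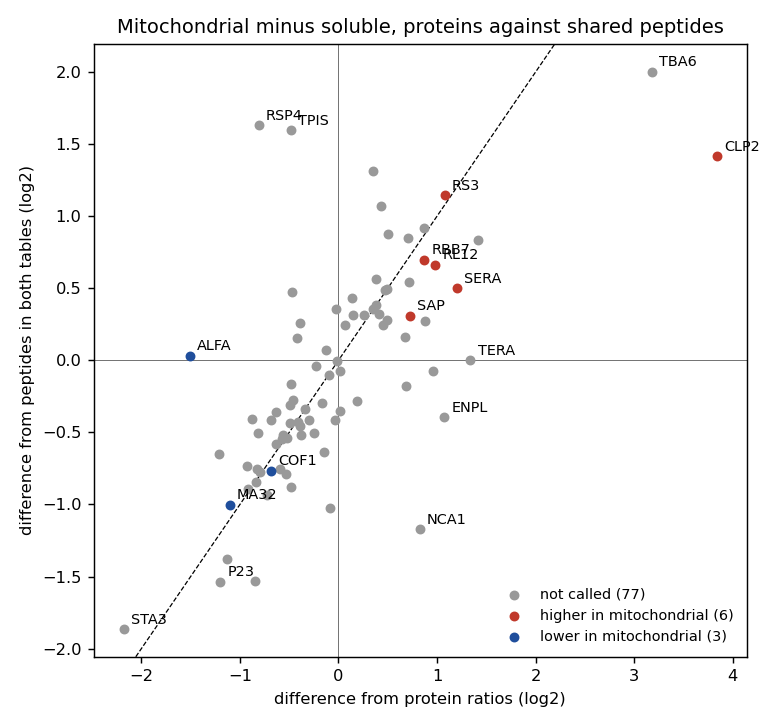
Mitochondrial minus soluble difference of centred log2 ratios from the deposited protein ratios (horizontal) against the median over peptides found in both tables (vertical), 1 point for each of the 86 proteins with such a peptide. The dashed line marks equality; most points lie near it, while aldolase A (ALFA) falls to 0.03 and the neural cell adhesion molecule (NCA1) and triosephosphate isomerase (TPIS) change sign.

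Of the 11 called proteins, 9 had a shared peptide. In 6 of these (calponin H2, S3, L12, retinoblastoma-binding protein 7, p32 and cofilin 1) the shared peptides were at least 1.5-fold apart on the same side. In 2, prosaposin and phosphoglycerate dehydrogenase, they were on the same side by less, and in 1, aldolase A, they were at 0.03. When the error counts the spread between lines of a peptide, 0 of the 9 passed the rule by the median over their shared peptides. Protein disulfide isomerase A3 and the brain-form entry of Cdc42 had no shared peptide. Over the 86 proteins, the protein and the peptide difference were apart by a median of 0.21, and by 1.5-fold or more in 18.

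The lines of a peptide are repeat readings within 1 mixture. Among the 75 shared peptides with at least 2 different readings in each table, readings of a peptide were a median of 0.61 apart on the log2 scale within the soluble and 0.49 within the mitochondrial table. Readings taken from opposite tables, after centring, were 0.74 apart. The gap between tables was thus the larger, but the 2 kinds of gap are not like for like. Only equal readings were merged, so nearly equal ones, such as 11.295 and 11.31 for MIF in the soluble table, counted as separate. Such pairs lower the gaps within a table, and whether the fractions differ was not tested.

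**Figure D4:**
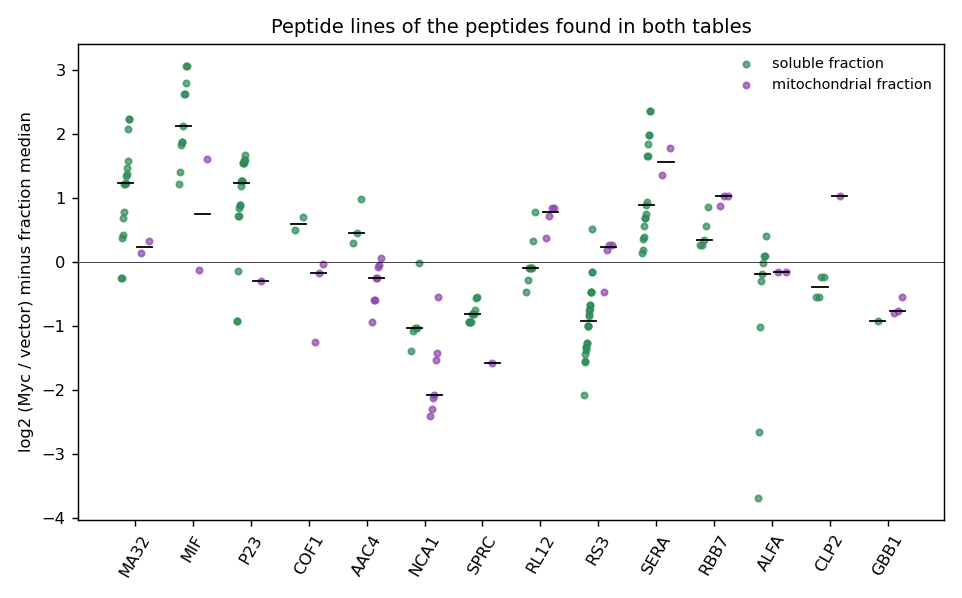
Centred log2 ratio of Myc over vector of each line of the peptides found in both tables, for 14 proteins discussed here, soluble (green) and mitochondrial (purple), with a bar at the median of the lines. The p32 protein (MA32), alpha-actinin 4 (AAC4) and SPARC (SPRC) have lower mitochondrial medians and L12 (RL12) and S3 (RS3) higher ones, while soluble lines of S3, p32 and aldolase A (ALFA) span several-fold.

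The chromatin-enriched fraction gave another value for 33 of the 95 proteins. By the same joining rule, soluble and chromatin tables shared 77 proteins, of which 24.7% were called different, against 11.6% here. The median absolute difference was no larger for chromatin, at 0.47 against 0.52 here. The deposited SDs were smaller there, with medians of 13.2% (chromatin) and 26.1% (mitochondrial) of the ratio, and the 2 shares were not compared by a test. Of the 4 called proteins with a chromatin ratio, L12 (1.40 ± 0.357) and p32 (2.50 ± 1.37) were closer to their soluble value after centring. Phosphoglycerate dehydrogenase (2.76 ± 3.96) and retinoblastoma-binding protein 7 (2.34 ± 0.367) were closer to their mitochondrial value.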

How the data were processed

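Cysteine-tagged peptides of 3 labelled mixtures were analysed by tandem mass spectrometry, and the soluble and the mitochondrial mixture are used here. Per the labels, the authors calculated the linear ratios of Myc over vector, with their SD, by ASAPRatio from spectra searched against rat, mouse and human proteins. Per the authors' legend, peptides have a PeptideProphet probability of at least 0.5, and ratios of 0, 9999 and -1 are codes for undetected peaks. Coded values were left out. Each line's text cell supplied the deposited protein ratio, SD and peptide number. Tool versions and any centring by the authors are not given in the sources used here. Spectral depth is unknown.

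Ratios were centred on the median of all quantified entries of a fraction. Combined errors are SD over ratio, added in quadrature. A peptide value is the median over its uncoded lines, modification marks ignored. Its error is the larger of the lines' median deposited SD and their own spread. The calculation was tested on simulated data with known differences. Proteins were named by reading Swiss-Prot entry names, not by look-up. Of the 95, 93 gene symbols were assigned and 93 occur in the GRCr8 gene table. No amino acid sequence is printed. The rule for named proteins took every called protein, the 10 highest and 10 lowest differences, every protein with a shared peptide and the extremes of each list; others are added as context, and some that meet it are counted but not reported singly here. Members and lists were chosen with earlier results of these data known. Lists of annexins and S100 proteins and of chloride channels had no member, and the tRNA synthetase pattern missed its 1 member. The alternatives changed centring, fold, error rule, peptide number, probability, species pairing and peptide summary. Python 3.11.15, numpy 2.4.6, pandas 2.3.3 and matplotlib 3.10.9 were used.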

Additional observations from a re-analysis of the deposited data

Results flagged for a closer look

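In 3 proteins the deposited ratios lay more than 2 deposited SDs from 1 on opposite sides in the 2 fractions, with 1 mixture each. The placental-form entry of Cdc42 stood at 1.29 ± 0.059 in the soluble and 0.771 ± 0.096 in the mitochondrial fraction. The lysosomal protective protein stood at 1.14 ± 0.018 and 0.774 ± 0.072, the latter from 1 peptide with a probability of 0.608. Arginyl-tRNA synthetase stood at 1.64 ± 0.248 and 0.948 ± 0.014, close to 1. None of the 3 passed the rule of 1.5-fold after centring, the difference was not tested, and the fraction medians of 1.34 and 1.15 both lie above 1.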

How the results depend on the processing

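No paired analysis was possible because each fraction was 1 mixture, and no replicate could be left out. The count of 11 different proteins (7 higher, 4 lower in the mitochondrial fraction) became 16 without centring (4 higher, 12 lower), with 8 of the 11 kept. It became 7 at 2-fold (4 and 3) and 17 with a fold minimum midway between 1 and 1.5 (9 and 8). More than 1 combined error gave 27 (14 and 13), more than 3 gave 6 (4 and 2), and no error rule gave 42 (19 and 23). With at least 2 peptides in both fractions 3 of 31 proteins were called (3 and 0), and with same-species pairs 4 of 46 (1 and 3). Centring on the shared proteins, a probability of at least 0.9, and leaving out single peptides below 0.9 each kept all 11. The probability was the highest of an entry's lines, so these settings could not remove a weak peptide from an entry with a stronger one. Calponin H2 thus stayed, although 1 of its 2 mitochondrial peptides had a probability of 0.570. The median of peptide ratios gave 9, all among the 11. The other species' soluble entry gave 11 with 9 kept. The settings on single peptides and on the other species' entry were chosen after seeing the data. Restricted to peptides in both tables, aldolase A changed sign, to 0.032. The 7 called peptides became 37 when 1 line stood for each peptide, where the spread between lines no longer enters the error. No list median changed sign without centring or, where members remained (not glycolysis, matrix and surface), with at least 2 peptides, though that of ribosomal proteins fell to 0.15 without centring. The deposited errors cover at most spread within a mixture. For cofilin 1, L12, retinoblastoma-binding protein 7, prosaposin and calponin H2 in the mitochondrial table they were smaller than the SD of every line. For retinoblastoma-binding protein 7 the deposited SD was 0.178, against 0.618 to 2.51 for its lines.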
